A study of Mus musculus with 9 samples.

Results

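The comparison described here set mouse splenic B cells after 2 h of anti-IgM against untreated B cells, across every transcript that the arrays measured. Its members were the 3 arrays whose titles give 2 h of anti-IgM and the 3 arrays titled as untreated, which are 6 of the 9 arrays of the series. The remaining 3 carry a 1 h label. They entered the noise filter, the choice of probes and the estimate of the spread, and their values are given where named. All samples came from the spleens of C57BL/6 mice aged 8 weeks, and the labels call the cells primary B-lymphocytes. Treated cells had received a goat F(ab')2 fragment against mouse IgM at 2.5 µg/ml, which crosslinks the antigen receptor without engaging Fc receptors. IL-4 (5 ng/ml) and CD40L (200 ng/ml) appear in the protocol too, which does not say which arrays, untreated ones included, received them. The series text gives 3 h of anti-IgM where the sample labels give 1 and 2 h, and the labels were followed. Total RNA had been amplified to biotin-labelled cRNA for Illumina bead arrays, and each deposited value is a linear intensity of 1 probe. Whether the arrays of a label stem from different mice or cultures is not stated, so a p-value here speaks of the spread among these samples alone, and that spread may be technical.

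The B cell antigen receptor consists of membrane immunoglobulin and the signalling chains CD79A and CD79B. Its crosslinking activates the kinases LYN, SYK and BTK and then phospholipase C, which releases calcium and drives calcineurin and NFAT, protein kinase C and NF-kappaB, and the RAS and ERK cascade. In B cells these pathways are known to induce immediate-early transcription factors and chemokines first, then MYC and the machinery of cell growth, while factors that hold lymphocytes at rest are shut off.

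Of the 45281 probes, 20983 were above noise on at least 3 arrays, and 1 probe per gene left 14640 features, 11104 with a gene symbol. Levels are given as intensities, and differences as log2 of the intensity plus 50, at 2 h minus untreated, which understates the change of dim genes. Each array had between 19088 and 19112 probes above noise. B cell markers were high on all 6 arrays, with a summed intensity over 7 measured of 10 genes of 36440 to 38510 untreated and 31370 to 38010 at 2 h. For T cells, 5 of 11 markers were measured, with sums of 545.4 to 933.3 untreated and 557.9 to 786.7 at 2 h, and Cd3g, Cd4 and Cd8a were among those not above the filter. Sums of 8 of 13 macrophage and monocyte markers were 539.7 to 2165 and 734.0 to 1444, with C1qa, Cd14 and Marco not above the filter, and those of 9 of 9 neutrophil markers 959.8 to 5536 and 1128 to 3976. Of the NK cell markers 3 of 7 were measured (734.1 to 1194 and 846.5 to 1490), and Ncr1, Klrb1c and Gzmb were not above the filter. Most of each NK cell sum was Prf1 (688 to 1126 and 813 to 1460). Markers of plasma cells gave 5220 to 7560 and 4773 to 6337 for 2 of 6. Nearly all of each plasma cell sum was Mzb1 (5211 to 7556 and 4766 to 6331). Jchain was around the noise threshold (4.58 to 8.87 and 2.92 to 6.73), and Sdc1, Prdm1 and Tnfrsf17 were not above the filter. Dendritic cell markers gave 62.6 to 163.8 and 94.5 to 231.0 for 4 of 6, and platelet markers 6.47 to 22.9 and 17.9 to 40.7 for 2 of 6. Erythroid markers (6 of 12) stood apart on single arrays, with 387.1, 345.1 and 8244 on untreated replicates 1, 2 and 3 and 8745, 824.9 and 1159 on 2 h replicates 1, 2 and 3. In such bulk samples fewer cells of a type and less RNA per cell cannot be told apart.

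Both replicate 2 arrays went against their labels. Across the 14640 features, the array labelled untreated replicate 2 had a Pearson r of 0.954 with untreated replicate 1 and of 0.986 with 2 h replicate 1. The array labelled 2 h replicate 2 had an r of 0.952 with 2 h replicate 1 and of 0.994 with untreated replicate 1. Within a label, replicates 1 and 3 had an r of 0.993 in both groups. These are correlations across genes, which are not independent replicates. The deposited labels were kept throughout, and the leading results are given over all arrays and again over replicates 1 and 3 only. Some values are given for 1 of these sets alone. The second set was chosen with results of these data known, and its arrays resemble each other by that choice. Its values are therefore a description, and counts past limma's threshold on it are no test of the treatment.

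To place the replicate 2 arrays gene by gene, each was put on a scale that runs from 0 at the mean of untreated replicates 1 and 3 to 1 at the mean of 2 h replicates 1 and 3. Over the 1015 features that differed at least 2-fold between those 4 arrays without overlap, untreated replicate 2 had a median position of 0.90 (quartiles 0.74 and 1.04). It lay nearer to the 2 h arrays in 951 of them (93.7%). The array labelled 2 h replicate 2 had a median position of 0.02 (quartiles -0.06 and 0.11) and lay nearer to the untreated arrays in 997 (98.2%). For the 100 features that differed at least 4-fold, the counts were 100 of 100 and 100 of 100. The 1 h arrays had median positions of 0.28, 0.91 and 0.38 for replicates 1, 2 and 3 over the 1015 features.

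**Figure D1:**
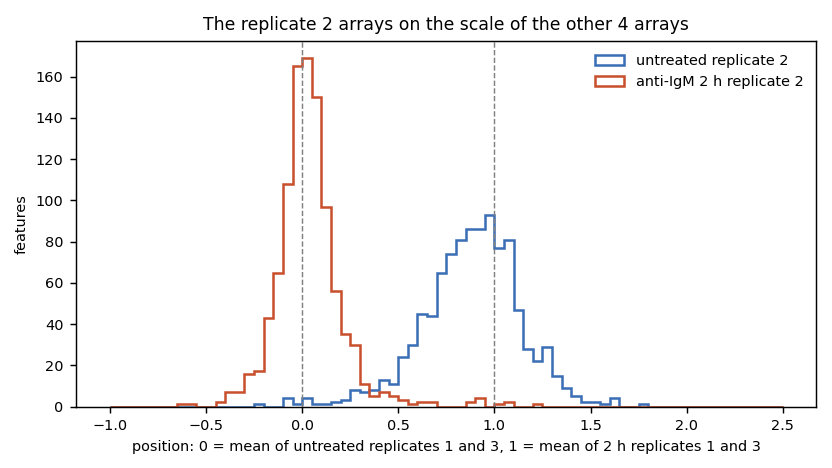
Histogram of the position of the 2 replicate 2 arrays, over the 1015 features that differed at least 2-fold between untreated and 2 h replicates 1 and 3. The x axis is the position between the means of the other arrays (0, untreated, and 1, 2 h), the y axis the number of features, and untreated replicate 2 centres near 0.90 while 2 h replicate 2 centres near 0.02.

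Over all arrays, 0 of 14640 features (0%) passed limma's moderated test at an adjusted p under 0.05, with a smallest adjusted p of 0.825 and 727 features at an unadjusted p under 0.05. A difference of at least 2-fold was seen for 34 features higher and 5 lower at 2 h, and of at least 4-fold for 0. On replicates 1 and 3, as a description only, 2303 features (15.7%) were past the same threshold higher and 2785 (19.0%) lower. There, 539 features were at least 2-fold higher and 476 at least 2-fold lower without overlap, 74 and 26 at least 4-fold, and 9 and 3 at least 8-fold. The groups did not overlap over 3 against 3 arrays for 995 features higher at 2 h (6.80%) and 640 lower (4.37%). Over replicates 1 and 3 they did not overlap for 4763 higher (32.5%) and 5192 lower (35.5%). The plot of all features sets both differences side by side.

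**Figure D2:**
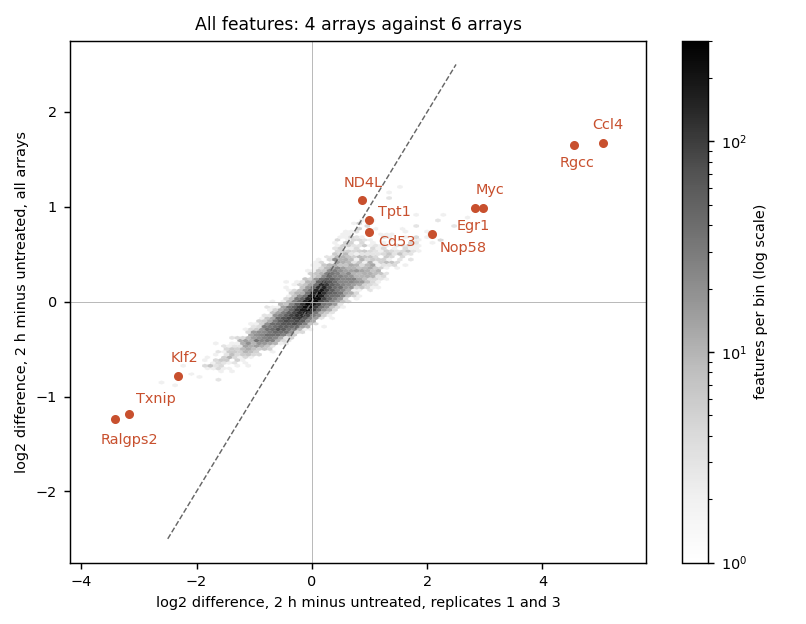
Log2 difference of 2 h minus untreated for the 14640 features, over replicates 1 and 3 (x axis) and over all arrays (y axis), shaded by the number of features per bin on a log scale; the dashed line marks equal values. Ccl4 (5.05 and 1.67) and Ralgps2 (-3.41 and -1.24) lie far from the line, whereas ND4L (0.87 and 1.08) and Tpt1 (0.99 and 0.86) lie close to it.

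Chemokine genes had the 2 largest differences on replicates 1 and 3. The chemokine gene Ccl4 (chromosome 11, 83648624 to 83664683, GRCm38.p6) was at 289, 11981 and 526 untreated and at 14820, 303 and 14396 at 2 h (intensities of replicates 1, 2 and 3 in this order, here and for each gene that follows). The 2 h arrays were high except replicate 2, and the untreated arrays low except replicate 2, so the groups overlapped. Its log2 difference was 1.67 ± 1.69 over all arrays (limma SE, n = 3 per group, adjusted p = 0.908) and 5.05 ± 0.21 over replicates 1 and 3 (n = 2 per group). Ccl3, whose product attracts myeloid and T cells, had 95.5, 2818 and 193 untreated and 4611, 126 and 4841 at 2 h, a difference of 1.77 ± 1.48 against 4.67 ± 0.19. The same arrays were high and low for Csf1, the growth factor of macrophages, at 12.0, 446 and 8.40 untreated and 517, 13.2 and 550 at 2 h (1.19 ± 1.19 against 3.28 ± 0.22). Tnf, an inflammatory cytokine gene, had 17.7, 485 and 15.3 untreated and 482, 15.0 and 452 at 2 h (0.96 ± 0.99 against 2.96 ± 0.14). Of 18 measured chemokine and cytokine genes (24 written), 0 passed the test over all arrays. On replicates 1 and 3, 12 were higher and 2 lower without overlap (all features 32.5% and 35.5%). The list's median difference was 0.23 over all arrays and 0.41 on replicates 1 and 3, beside -0.01 and -0.00 over all features. Chosen after their values were seen, Xcl1 and Il10 were higher by 2.46 and 2.12 on replicates 1 and 3, while Ltb, which encodes lymphotoxin beta, was at -1.13.

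A further group of leading genes encodes regulators outside these families. Rgcc (chromosome 14, 79288750 to 79301635), a cell cycle regulator gene, had 23.0, 1248 and 41.2 untreated and 1700, 23.1 and 2039 at 2 h, a difference of 1.65 ± 1.56 over all arrays (adjusted p = 0.908) and 4.55 ± 0.17 on replicates 1 and 3. Its 1 h arrays were at 220, 1860 and 330, so that replicates 1 and 3 lay between untreated and 2 h. Hilpda, a lipid droplet protein gene known to respond to hypoxia, had 102, 1395 and 111 untreated and 1530, 131 and 1732 at 2 h (1.28 ± 1.10 against 3.42 ± 0.13). Mir17hg, the host transcript of the miR-17 to miR-92 cluster, had 134, 1836 and 133 untreated and 1668, 104 and 1689 at 2 h (0.95 ± 1.14 against 3.24 ± 0.14). The probe reports the host transcript and not the mature miRNAs. Of the genes named after their values were seen, the differences on replicates 1 and 3 were 2.85 ± 0.15 for the growth factor gene Pdgfa, 2.82 ± 0.21 for the semaphorin gene Sema7a, 2.82 ± 0.14 for the inhibitory receptor gene Lilrb4a and 2.58 ± 0.12 for Il1r2, the interleukin 1 decoy receptor. Over all arrays these were 1.06, 0.71, 1.19 and 1.08, with adjusted p between 0.908 and 0.914.

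**Figure D3:**
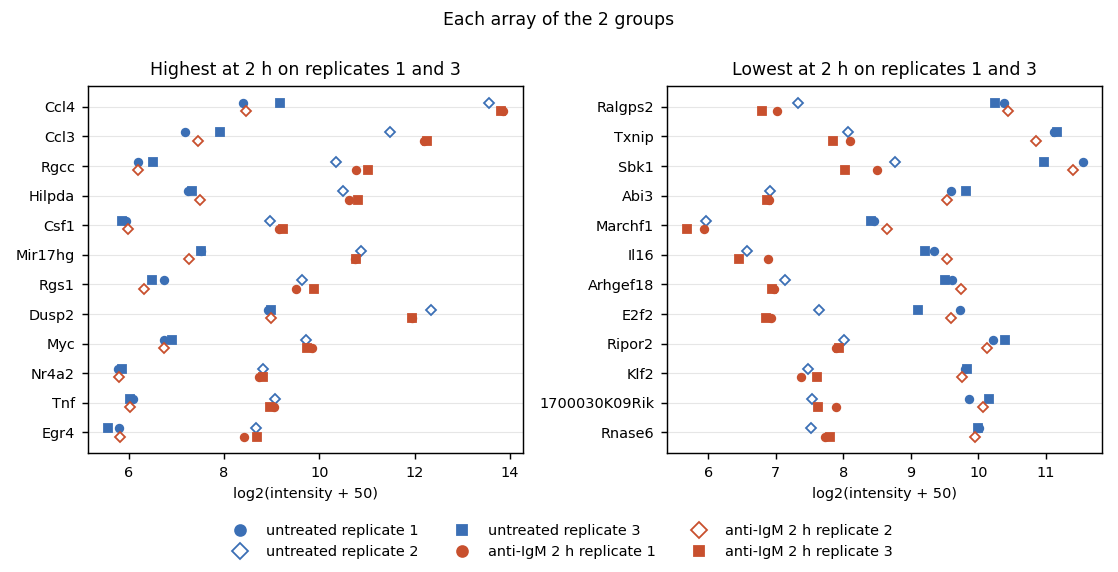
Each array's level, as log2 of the intensity plus 50 (x axis), for the 12 genes with the largest positive and the 12 with the largest negative difference on replicates 1 and 3; colour gives the group, symbols the replicate, and open diamonds replicate 2. In each of these 24 genes the open diamonds sit with the filled symbols of the other group.

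Immediate-early transcription factors are induced without new protein synthesis. Of 24 written, 20 were measured. On replicates 1 and 3 they had a median difference of 1.54, with 16 higher and 3 lower without overlap (all features 32.5% and 35.5%). Over all arrays the median was 0.57, 16 were higher and 4 lower, 0 passed the test and 0 did not overlap. Myc, the highest member on replicates 1 and 3, had 57.0, 798 and 70.0 untreated and 876, 56.4 and 801 at 2 h. Its difference was 0.98 ± 0.99 over all arrays (limma, adjusted p = 0.908) and 2.97 ± 0.12 on replicates 1 and 3. Nr4a2, a nuclear receptor gene, had 4.81, 400 and 7.80 untreated and 376, 5.77 and 401 at 2 h (0.97 ± 0.99 over all arrays, 2.96 ± 0.16 on replicates 1 and 3). Egr4, a zinc finger gene, was not above noise on untreated replicates 1 and 3 (5.25 and -2.92) and had 360 on replicate 2, with 291, 6.36 and 365 at 2 h. On replicates 1 and 3 it was at least 6.66-fold higher at 2 h on the scale of the intensity plus 50. Fosl2, an AP-1 gene named after its values were seen, was at least 5.91-fold higher by the same measure (2.16, 340 and 0.69 untreated and 281, 8.33 and 285 at 2 h). Egr2 had 1097, 7572 and 1023 untreated and 6705, 1609 and 6437 at 2 h (0.98 ± 0.82 against 2.58 ± 0.13). Members did not move alike on replicates 1 and 3. Junb was at 2.50 and Fos at 1.47, whereas Jun was at -1.08 and Klf6 at -0.38, all 4 chosen after their values were seen. On replicates 1 and 3 of the 1 h label, which share the untreated arrays with this comparison, the list's median was 2.13.

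Among signal-limiting genes, Dusp2, a nuclear phosphatase gene for ERK and other MAP kinases (chromosome 2, 127336159 to 127338377), had 436, 5107 and 459 untreated and 3862, 460 and 3901 at 2 h. The difference was 0.88 ± 1.06 over all arrays (adjusted p = 0.908) and 2.98 ± 0.15 on replicates 1 and 3, and the groups overlapped through both replicate 2 arrays. Dusp4 had 1.82 ± 0.18 on replicates 1 and 3 and 0.52 ± 0.66 over all arrays. Of the 15 measured MAPK phosphatases and Sprouty-type inhibitors (18 written), 11 were higher and 2 lower without overlap on replicates 1 and 3. Both lower ones, Dusp6 at -1.80 and Dusp10 at -0.99, encode phosphatases too and were named after their values were seen. Rgs1, which speeds the shut-off of G protein signals, had 57.0, 743 and 40.2 untreated and 682, 30.3 and 896 at 2 h (0.95 ± 1.07 against 3.08 ± 0.19). Rgs16 was not above noise on untreated replicates 1 and 3 and was at least 5.18-fold higher on the matching 2 h arrays. In contrast, Socs3, an inhibitor gene of cytokine receptor signals named after its values were seen, had 330, 38.9 and 353 untreated and 30.8, 439 and 36.9 at 2 h. Its difference was -2.22 ± 0.12 on replicates 1 and 3 and -0.66 ± 0.82 over all arrays. Of 18 measured RGS and SOCS family and related genes (19 written), 8 were higher and 7 lower without overlap on replicates 1 and 3, counts near the 32.5% and 35.5% of all features.

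In the NF-kappaB pathway most measured genes were higher on replicates 1 and 3. Of 27 written, 24 were measured, with 17 higher and 5 lower without overlap on replicates 1 and 3 (all features 32.5% and 35.5%). The median was 0.74 there and 0.15 over all arrays. The all-array median was -0.0071 without untreated replicate 3 and 0.49 without untreated replicate 2. Rel, which encodes the subunit c-Rel, had 110, 537 and 82.9 untreated and 693, 115 and 691 at 2 h (0.95 ± 0.71 against 2.35 ± 0.13). Bcl2a1c, a survival gene of a family with near-identical copies that a probe may not separate, had 2.03 ± 0.13 on replicates 1 and 3 and 1.01 ± 0.55 over all arrays. The inhibitor gene Nfkbid was at 1.90 and Nfkbia at 0.90 on replicates 1 and 3. Birc2, a ubiquitin ligase gene, was at -1.18 and Tnip1 at -0.81. These last 4 were chosen after their values were seen, and 0 of the 24 passed the test over all arrays.

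The receptor's own signalling chain lay mostly on the other side. Of 36 genes written for antigen receptor proximal signalling, 29 were measured. On replicates 1 and 3, 7 were higher and 19 lower without overlap (all features 32.5% and 35.5%). Their median was -0.62 there and -0.24 over all arrays, and 0 passed the test over all arrays. Vav2, a guanine nucleotide exchange factor gene, had 1931, 866 and 1501 untreated and 575, 2116 and 516 at 2 h (-0.63 ± 0.53 against -1.56 ± 0.15). Ptpn6, which encodes the inhibitory phosphatase SHP-1, had 3067, 1355 and 3089 untreated and 1187, 3013 and 1000 at 2 h (-0.60 ± 0.44 against -1.46 ± 0.12). Untreated replicate 2 lay between the low and the high arrays for both genes, and 2 h replicate 2 lay with the high ones. Activating and inhibitory members were both among the lower ones, with Btk at -1.39, Plcg2 at -1.20, Cd22 at -1.43 and Fcgr2b at -1.21 on replicates 1 and 3. Pik3ap1, the PI3-kinase adaptor gene BCAP, was at 1.29. These 5 were chosen after their values were seen. Among calcium and NFAT genes, 26 were measured of 31 written. Of these, 6 were higher and 15 lower without overlap on replicates 1 and 3 (all features 32.5% and 35.5%). Orai1, the plasma membrane calcium channel gene, had 171, 1112 and 211 untreated and 1413, 151 and 1172 at 2 h (0.81 ± 0.84 against 2.48 ± 0.14). Nfatc3 had 1430, 515 and 1503 untreated and 460, 1459 and 402 at 2 h (-0.63 ± 0.56 against -1.66 ± 0.12).

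Genes known from resting lymphocytes, homing receptors and growth brakes were 31 measured of 33. On replicates 1 and 3, 7 were higher and 19 lower without overlap (all features 32.5% and 35.5%). The list's median was -0.40 there and -0.21 over all arrays. Txnip, which restrains glucose uptake, had 2180, 218 and 2255 untreated and 225, 1806 and 179 at 2 h (-1.19 ± 0.99 against -3.18 ± 0.13). Its 1 h arrays were at 339, 416 and 298, so all 3 lay below untreated replicates 1 and 3. Pik3ip1, an inhibitor gene of PI3-kinase named after its values were seen, had -2.02 ± 0.16 on replicates 1 and 3 and -0.95 ± 0.57 over all arrays. Not every member was lower. Gpr183, a receptor gene that positions B cells in follicles, was at 0.99 and Il7r at 0.77 on replicates 1 and 3, both chosen after their values were seen.

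Several of the largest negative differences on replicates 1 and 3 came from genes in none of these lists. Ralgps2, a guanine nucleotide exchange factor gene for Ral (chromosome 1, 156804166 to 156939850), had 1281, 110 and 1160 untreated and 79.2, 1331 and 60.8 at 2 h. The difference was -1.24 ± 1.19 over all arrays (adjusted p = 0.908) and -3.41 ± 0.13 on replicates 1 and 3. Its 1 h arrays were at 512, 75.7 and 539. The 6 probes of Ralgps2 ranged from -3.41, the brightest and the one used, to -0.40 on replicates 1 and 3. Sbk1, a protein kinase gene, had 2935, 386 and 1958 untreated and 310, 2641 and 210 at 2 h (-1.13 ± 1.06 against -3.00 ± 0.19). Marchf1 encodes the ubiquitin ligase that removes MHC class II and CD86 from the surface, and it had 301, 12.5 and 290 untreated and 11.1, 351 and 1.20 at 2 h (-0.86 ± 0.96 against -2.63 ± 0.15). Cd86 itself, named after its values were seen, was at 1.69 on replicates 1 and 3. The actin regulator gene Abi3, the cytokine precursor gene Il16 and the ribonuclease gene Rnase6 had differences of -2.82, -2.60 and -2.23 on replicates 1 and 3. On the same replicates other probes of Il16 (-0.42), Vav2 (-0.43 and -0.29) and Nfatc3 (from -1.28 to -0.18) lay nearer to 0 than the ones used. So did those of Cd69 (0.12), Dusp4 (0.37, 1.02 and 1.73), Fosl2 (0.24 and 0.63) and Sema7a (0.88). In Abi3, Il16 and Rnase6 untreated replicate 2 was among the low arrays and 2 h replicate 2 among the high ones.

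Among the 28 pathway lists, ribosome biogenesis was the one with each measured member higher on replicates 1 and 3. Of 60 written, 52 were measured and all 52 were higher there, 50 of them without overlap (all features 32.5%). The median was 1.21 with quartiles of 0.80 and 1.67. Over all arrays 49 were higher and 3 lower with a median of 0.45, 0 passed the test, and 2 (Tcof1 and Emg1) did not overlap. Rrp1b, a nucleolar rRNA processing gene, had 96.9, 1147 and 134 untreated and 838, 129 and 864 at 2 h (0.72 ± 1.03 against 2.46 ± 0.19). Rrp9, a component gene of the U3 small nucleolar particle, had 54.3, 425 and 66.1 untreated and 441, 65.4 and 440 at 2 h (0.76 ± 0.80 against 2.16 ± 0.13). The lowest member on replicates 1 and 3 was Npm1 at 0.07. On the same replicates of the 1 h label, which share the untreated arrays, the list's median was 0.18.

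Cytosolic ribosomal protein genes stood apart from the factors that assemble ribosomes on replicates 1 and 3. The 30 measured ribosomal protein genes (45 written) had a median of -0.04 there, with a range from -0.75 for Rpl22 to 0.34 for Rpl32. On those replicates 7 were higher and 10 lower without overlap (all features 32.5% and 35.5%). Over 3 against 3 arrays 5 were higher and 5 lower without overlap (all features 6.80% and 4.37%). Rpl32 had 13766, 12875 and 13816 untreated and 17550, 16606 and 17498 at 2 h, with no overlap over 3 against 3 arrays (0.35 ± 0.09 over all arrays). These genes have many processed pseudogenes, and a probe may take signal from copies.

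Of the other growth-related lists, 5 had medians between 0.37 and 0.68 on replicates 1 and 3, and glycolysis and nutrient transport (23 of 29 measured, 11 higher and 5 lower without overlap) and the proteasome (32 of 37, 17 and 8) had 0.16 and 0.12. On those replicates 32.5% of all features were higher and 35.5% lower without overlap, beside which each count of this paragraph stands. Chaperonins and chaperones (23 of 26 measured) had 21 higher and 0 lower without overlap. Mitochondrial import and mitochondrial ribosome genes (27 of 31) had 20 and 2, and translation initiation and tRNA synthetase genes (36 of 42) had 27 and 4. Nucleotide, one-carbon and polyamine synthesis genes (26 of 32) had 18 and 2, and splicing factors and hnRNP proteins (29 of 34) had 20 and 2. Over all arrays these 5 lists had medians of 0.24, 0.13, 0.17, 0.10 and 0.11, and 0 of their members passed the test. Without untreated replicate 3 the median of the splicing list was -0.0093. Srm, the spermidine synthase gene, had 107, 1194 and 130 untreated and 1087, 121 and 1123 at 2 h (0.90 ± 1.14 against 2.78 ± 0.14). Ctps, a CTP synthase gene, had 2.23 ± 0.15 on replicates 1 and 3 and Eif4a1, the helicase gene of translation initiation, 1.33 ± 0.13. Eef1e1, a scaffold gene of the tRNA synthetase complex named after its values were seen, had 2.55 ± 0.13. Within the synthetases Vars went the other way at -1.32, also named after its values were seen. Timm10 and Timm9 encode partner chaperones of the mitochondrial intermembrane space. Timm10 had 138, 563 and 181 untreated and 895, 153 and 920 at 2 h, and Timm9 436, 1392 and 524 untreated and 1407, 476 and 1572 at 2 h. Hspd1, the mitochondrial chaperonin gene, had 577, 1536 and 579 untreated and 1487, 634 and 1597 at 2 h (0.49 ± 0.63 against 1.34 ± 0.12).

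**Figure D4:**
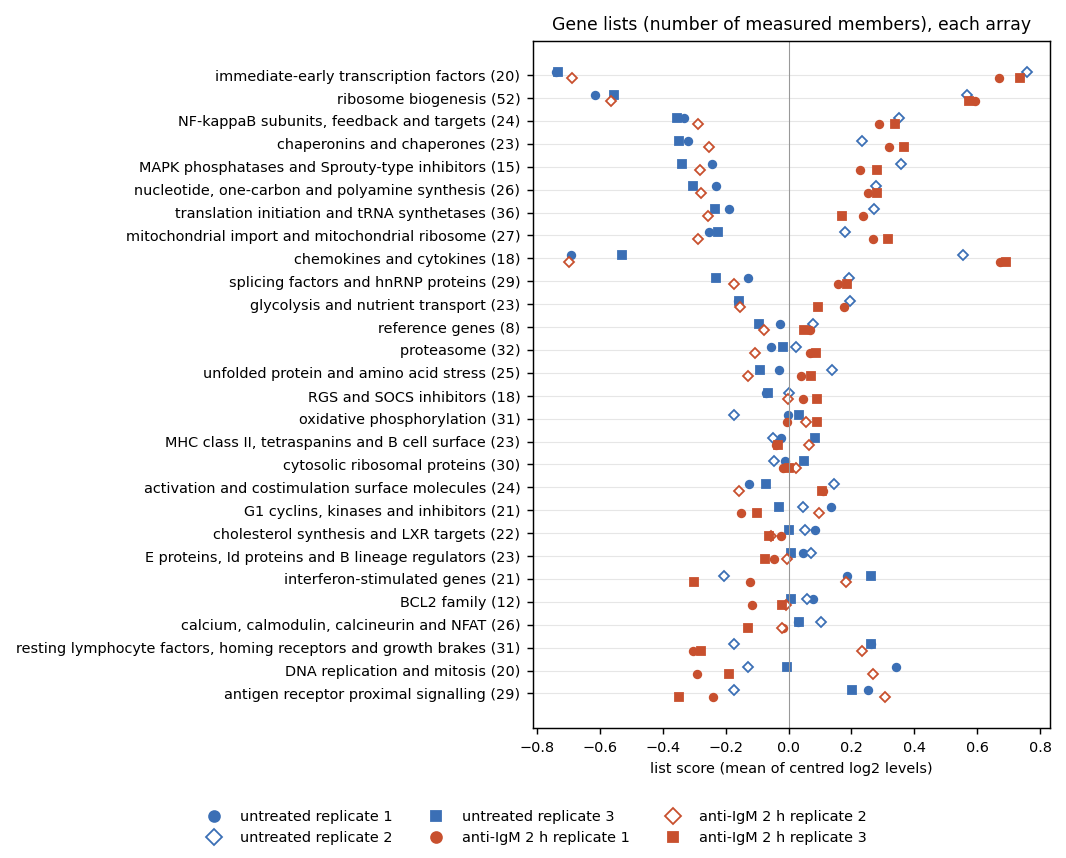
Score of each of the 28 gene lists on each array, the mean log2 level of the list's measured members with every gene centred on its 6-array mean (x axis); the number of measured members stands in brackets and open diamonds are replicate 2. For ribosome biogenesis and immediate-early factors the open diamonds lie with the other group's filled symbols, while the scores of the cytosolic ribosomal proteins lie close to 0 on every array.

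Because MYC is known to bind the sequence CACGTG (the E-box) and to drive genes of growth, promoters were searched for it on both strands, a palindrome reading alike on each. The RefSeq promoter table (GRCm38.p6, 250 bases before to 50 after the start) held 45 of the 52 ribosome biogenesis genes, and 10 of them (22.2%) had CACGTG. The share was 10% (905 of 9013) over all measured genes with a promoter and 7.24% (1957 of 27025) over all promoters in the table. It was 18.8% (3 of 16) for the immediate-early factors, 14.5% (12 of 83) for the 100 genes most higher on replicates 1 and 3 and 11.0% (9 of 82) for the 100 most lower. The letters TGACGTCA and TGANTCA are known to be bound by CREB and AP-1 factors. They were in 2.41% and 7.23% of the promoters of the 100 genes most higher and in 0% and 4.88% of those most lower. The shares were 3.28% and 5.20% over all measured genes and 1.88% and 7.93% over all promoters in the table. In the ribosome biogenesis list they were 2.22% and 0%, and 0 of the 16 immediate-early promoters held either. A match is only a stretch of letters and was not tested for binding. The promoters of Dusp2 (chr2:127335909-127336208, plus strand), Timm9 (chr12:71136626-71136925, minus strand) and Hspd1 (chr1:55088194-55088493, minus strand) are shown because they hold the E-box and belong to a signal-limiting gene and to growth genes described above. Each reads 5′ to 3′ with CACGTG in capitals, which starts at -109 from the transcription start in Dusp2, at -58 and -1 in Timm9 and at -80 in Hspd1.
Dusp2: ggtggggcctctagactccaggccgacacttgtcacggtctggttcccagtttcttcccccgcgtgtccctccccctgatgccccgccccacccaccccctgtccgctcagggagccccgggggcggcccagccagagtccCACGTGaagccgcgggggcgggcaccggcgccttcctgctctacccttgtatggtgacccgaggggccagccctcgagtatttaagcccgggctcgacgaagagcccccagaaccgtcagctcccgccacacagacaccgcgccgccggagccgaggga
Timm9: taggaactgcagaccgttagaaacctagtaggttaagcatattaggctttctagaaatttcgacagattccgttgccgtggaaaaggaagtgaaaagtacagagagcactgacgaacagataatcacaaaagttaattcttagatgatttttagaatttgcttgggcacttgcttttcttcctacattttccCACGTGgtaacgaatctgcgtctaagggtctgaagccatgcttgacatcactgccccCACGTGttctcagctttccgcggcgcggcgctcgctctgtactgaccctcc
Hspd1: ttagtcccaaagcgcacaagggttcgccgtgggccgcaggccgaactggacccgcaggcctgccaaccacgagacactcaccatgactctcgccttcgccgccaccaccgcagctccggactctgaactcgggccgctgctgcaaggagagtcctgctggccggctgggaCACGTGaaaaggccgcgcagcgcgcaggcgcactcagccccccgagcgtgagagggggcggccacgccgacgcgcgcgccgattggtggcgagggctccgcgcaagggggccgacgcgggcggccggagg

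Transcription factors of the B lineage and of the cell cycle also divided the arrays. Irf4, a factor gene of activated B cells and plasma cell differentiation, had 591, 4799 and 543 untreated and 4170, 556 and 4138 at 2 h (0.85 ± 0.96 against 2.77 ± 0.13). Gfi1, a repressor gene, had 1.73 ± 0.15 on replicates 1 and 3. Of 30 E protein, Id protein and lineage regulator genes written, 23 were measured. Their median was -0.04 over all arrays and -0.20 on replicates 1 and 3. There, 5 were higher and 13 lower without overlap (all features 32.5% and 35.5%). Ets1 at -1.58 and Bcl6 at -1.37 were among the lower, and Id2 at 1.58 among the higher, all 3 chosen after their values were seen. The G1 cyclin gene Ccnd2 had 285, 2186 and 279 untreated and 1456, 421 and 1627 at 2 h (0.76 ± 0.88 against 2.26 ± 0.13). E2f2 had 795, 150 and 500 untreated and 71.7, 723 and 66.0 at 2 h (-1.03 ± 0.83 against -2.52 ± 0.18). Genes of DNA replication and mitosis (20 of 28 measured) had medians of -0.19 over all arrays and -0.44 on replicates 1 and 3. Without overlap, 1 was higher and 16 were lower there (all features 32.5% and 35.5%). The higher one was Pcna, the DNA polymerase clamp gene, with 42.2, 67.2 and 32.9 untreated and 133, 35.4 and 150 at 2 h. The mitotic kinase gene Plk1 had 677, 246 and 504 untreated and 164, 502 and 208 at 2 h.

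Surface molecules of activation had counts near those of all features on replicates 1 and 3. Of 24 measured, 10 were higher and 11 lower without overlap on replicates 1 and 3 (all features 32.5% and 35.5%), and the median was -0.05. Tfrc, the transferrin receptor gene, had 408, 2475 and 463 untreated and 2357, 393 and 2184 at 2 h (0.67 ± 0.92 against 2.26 ± 0.13). Cd69, the early activation marker gene, had 954, 3613 and 803 untreated and 3439, 999 and 3296 at 2 h (0.66 ± 0.68 against 1.88 ± 0.12). Over 3 against 3 arrays 0 members were higher and 5 were lower without overlap, where all features had 6.80% and 4.37%. Those 5 were Fas, Cd80, Tnfrsf9, Slamf7 and Icosl, with differences of -0.37 to -0.19 on replicates 1 and 3. Interferon-stimulated genes (21 of 29 measured) had medians of -0.05 over all arrays and -0.26 on replicates 1 and 3. Without overlap, 1 was higher and 12 were lower there (all features 32.5% and 35.5%). Stat2, a factor gene of the type I interferon response, had 90.9, 32.7 and 90.3 untreated and 11.9, 88.6 and 2.60 at 2 h (-0.62 ± 0.36 against -1.30 ± 0.12).

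The genes that follow were chosen for having no overlap between the labels over 3 against 3 arrays, among the 6.80% of features higher and the 4.37% lower, so that both replicate 2 arrays lie on the side of their own label by this choice. Cd53, a tetraspanin gene of leukocytes (chromosome 3, 106758861 to 106790149), had 1938, 2085 and 1747 untreated and 3447, 2454 and 3959 at 2 h. Its difference was 0.73 ± 0.17 over all arrays (adjusted p = 0.825) and 0.99 ± 0.13 on replicates 1 and 3. From here to the reference genes, a difference given alone is over all arrays. H2-Aa, an MHC class II gene, had 6420, 6760 and 6835 untreated and 8946, 8503 and 9887 at 2 h (0.44 ± 0.10, adjusted p = 0.825, against 0.50 ± 0.12). Both genes missed the threshold although their 3 and 3 arrays did not overlap. Tpt1, which encodes the translationally controlled tumour protein, had 38.8, 47.7 and 45.5 untreated and 107, 98.5 and 163 at 2 h (0.86 ± 0.15, adjusted p = 0.825). Its 1 h arrays, at 42.4, 31.1 and 29.1, lay with the untreated ones. Vapa, a gene of membrane contact sites, had 247, 308 and 236 untreated and 546, 331 and 628 at 2 h (0.78 ± 0.21), and Gng5, a G protein gamma subunit gene, 77.0, 72.0 and 83.3 untreated and 178, 110 and 278 at 2 h (0.84 ± 0.22). For Vapa and Gng5 the 2 h replicate 2 array was the nearest to the untreated ones. Selenok, a selenoprotein gene of the endoplasmic reticulum, had 0.86 ± 0.38, Hsd3b2, of a steroid dehydrogenase family with close copies, 0.82 ± 0.26, the predicted gene Gm12657 0.83 ± 0.22 and the claudin-like Cldn34c1 0.81 ± 0.27. Probes of Cldn34c1 differed in sign.

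**Figure D5:**
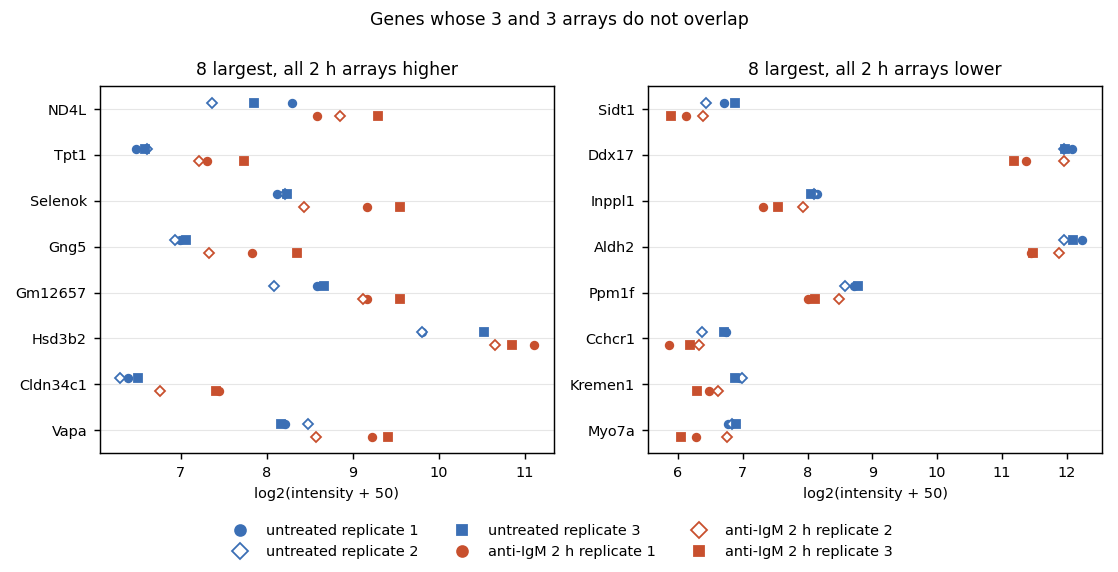
Each array's level, as log2 of the intensity plus 50 (x axis), for the 8 genes with the largest positive and the 8 with the largest negative difference over all arrays among those whose 3 untreated and 3 treated arrays did not overlap; colour gives the group and symbols the replicate, with open diamonds for replicate 2. The 2 h replicate 2 array is close to the other 2 h arrays in ND4L and Tpt1 and close to the untreated arrays in Vapa, Ddx17 and Myo7a.

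Transcripts of the mitochondrial genome were among these genes, and most were named after their values were seen. Of 8 measured, 5 were higher at 2 h over 3 against 3 arrays (ATP6, COX2, CYTB, ND1 and ND4L), and ND4, ND5 and ND6 overlapped, where 6.80% of all features were higher without overlap. ND4L, a complex I subunit gene (mitochondrial genome, 9877 to 10173), had 263, 114 and 181 untreated and 335, 410 and 577 at 2 h (1.08 ± 0.31 over all arrays, adjusted p = 0.825, and 0.87 ± 0.28 on replicates 1 and 3). ATP6, of the ATP synthase, had 2937, 2390 and 3131 untreated and 4246, 4533 and 5333 at 2 h (0.73 ± 0.17). ND1 had 4051, 3902 and 4076 untreated and 5120, 6445 and 5696 at 2 h (0.51 ± 0.10). In all 5 the 2 h replicate 2 array was higher than 2 h replicate 1. ND4 had 11485, 10862 and 10157 untreated and 10388, 12049 and 11611 at 2 h (0.07 ± 0.10). Of the nuclear genes of oxidative phosphorylation, 31 were measured of 35, with 7 higher and 0 lower over 3 against 3 arrays (all features 6.80% and 4.37%), and their median was 0.01 over all arrays and 0.01 on replicates 1 and 3. Among the 7, Cox7a2 had 120, 110 and 123 untreated and 175, 140 and 240 at 2 h (0.46 ± 0.16), and Ndufb9 123, 88.7 and 133 untreated and 168, 159 and 247 at 2 h (0.54 ± 0.18).

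Other genes that separated along the labels on all arrays, named after their values were seen, were the protease gene Ctss (0.66 ± 0.18), the actin-nucleating complex gene Arpc2 (0.64 ± 0.14), the transcription initiation gene Taf9 (0.74 ± 0.15) and the chromatin protein gene Hmgb1 (0.70 ± 0.20), each with an adjusted p of 0.825 over all arrays. Genes lower along the labels differed by less. The nucleic acid channel gene Sidt1 had 54.9, 36.1 and 67.5 untreated and 19.4, 33.7 and 9.11 at 2 h (-0.54 ± 0.23). The RNA helicase gene Ddx17 had 4303, 3925 and 3987 untreated and 2596, 3909 and 2281 at 2 h (-0.51 ± 0.21), and the lipid phosphatase gene Inppl1 234, 225 and 214 untreated and 109, 195 and 136 at 2 h (-0.51 ± 0.17). In Ddx17 the gap between the groups was that between 3925 and 3909, and probes of Ddx17 and Inppl1 differed in sign. The aldehyde dehydrogenase gene Aldh2, the phosphatase gene Ppm1f, the coiled-coil gene Cchcr1, the Wnt receptor partner gene Kremen1 and the myosin gene Myo7a had differences between -0.49 and -0.47.

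Reference genes and cell type markers were read on the same scale. Of 8 measured reference genes (12 written), 0 passed the test and the median was 0.04 over all arrays and 0.13 on replicates 1 and 3, with a range there from -0.10 for Gapdh to 0.26 for Hprt. Other probes of these genes went further, with 0.91 and 1.07 for Hprt and -1.18 for an Actb probe. Actb had 10411, 13988 and 11069 untreated and 12272, 9587 and 11461 at 2 h, a difference of -0.09 ± 0.18 over all arrays and 0.14 ± 0.12 on replicates 1 and 3, where its probes differed in sign. Of the 7 measured B cell markers, 6 were lower over all arrays and 6 on replicates 1 and 3, with medians of -0.24 and -0.27, and 0 passed the test over all arrays. On replicates 1 and 3 Cd22 was at -1.43 and Cd79b at -1.01, while Cd74, the remaining one, was at 0.07 with probes that differed in sign. Hbb-bs, a beta globin gene, had 186, 144 and 3168 untreated and 3682, 361 and 481 at 2 h (0.82 ± 1.44 against 0.69 ± 1.19), so the arrays high in globin were untreated replicate 3 and 2 h replicate 1. The neutrophil gene S100a8 had 848, 558 and 3091 untreated and 2151, 657 and 859 at 2 h. Both genes were thus high on 1 array of each group. The part of red cell or myeloid RNA in the differences described was not tested.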

How the data were processed

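Biotin-labelled cRNA of 9 samples had been hybridized to Illumina bead arrays, 3 untreated, 3 at 1 h and 3 at 2 h per the labels. The deposited intensity, 1 per probe and array, was used as given. The software behind it was not given in the sources used here. About 31.8% of values were below 0 and the arrays' medians were nearly equal, so values had been background-subtracted and normalized between arrays, judging from the file. Another table holds non-normalized signals in 9 value columns, none of which matches the labels of a single sample. They were left out, and as detection p-values are lacking there, neqc could not be run. The deposited intensities were turned into log2 of the value plus 50.

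A probe was above noise where it exceeded the upper 0.05 tail of the values below 0 mirrored around 0 (median threshold 6.44), and probes above it on at least 3 of 9 arrays passed. The platform annotation gave 1 symbol to 34885 probes, several to 18 and no symbol to 10378, and 34807 matched a RefSeq gene of GRCm38.p6. Per symbol the probe with the highest mean over all arrays was used, and 3536 features (24.2%) had no symbol. Of 57 named genes with several probes, the probes differed in sign for 10 over all arrays and for 9 on replicates 1 and 3.

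The model, fitted in limma 3.58.1 (lmFit, eBayes; R 4.3.3), held 1 mean for each label over the 9 arrays (6 residual degrees of freedom, median residual SD 0.202), two-sided, with Benjamini-Hochberg adjustment over 14640 features and a threshold of 0.05. The fit on replicates 1 and 3 of the 3 groups left 3 residual degrees of freedom (median residual SD 0.119). Errors are limma's standard errors. Adjusted p over all arrays was 0.825 to 0.998 for the genes named. A gene not above noise on the lower arrays has a bound, set against the lowest signal above noise. The comparisons and 28 pathway and 9 cell type lists were chosen with earlier results of these data known, as were the genes named. The naming rule gave 110 genes: those past the threshold, the 8 largest each way without overlap over 3 against 3 arrays, the 12 largest each way on replicates 1 and 3, 2 per list and 12 fixed genes. Another 25 genes, and list members quoted beyond the 2, were named after their values were seen. Scripts were tested on simulated data. Alternatives covered the offset, normalization, filter, probe choice, replicate block, array weights, variance model, threshold, the arrays in the fit and leaving out each array. The number of arrays limits the precision, and no sequencing depth applies. The numbers were not taken as pairs, because the labels do not say that they pair samples. Deviations of same-numbered untreated and 2 h arrays from their group means had r of -0.71, -0.79 and -0.52 across features for replicates 1, 2 and 3. Differently numbered arrays gave both signs, with -0.69 for untreated replicate 1 and 2 h replicate 3 and 0.80 for untreated replicate 1 and 2 h replicate 2. Each group mean includes a replicate 2 array that went against its label, so these values cannot decide on pairing.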

Additional observations from a re-analysis of the deposited data

How the results depend on the processing

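Over all arrays the count of features past the threshold was 0 with offsets of 16 and 100, quantile normalization, a median shift, no filter on dim probes, probes above noise on all 9 arrays, the mean of a gene's probes, a threshold of 0.1, a fit on the 6 arrays of the 2 groups, a trended and robust variance, and without each of the 9 arrays in turn (lowest and highest 0 and 0). It was 5088 on replicates 1 and 3 only and 4898 with array weights. The weights of the replicate 2 arrays were 0.34 for untreated, 0.26 for 1 h and 0.31 for 2 h. With the replicate block the count was 0, with 555 features at an unadjusted p under 0.05 in limma. The labels do not say that the numbers pair samples. The 5088 calls on replicates 1 and 3 became 1016 when a 2-fold difference was asked for as well, and were 4479 to 5741 under the other settings.

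Features without overlap between the groups numbered 1635. They were 3377 with no filter, 982 with probes above noise on all 9 arrays, 9955 on replicates 1 and 3 only, and 2207 to 5825 without 1 array. Fewer arrays have less room to overlap. The count was 4574 without untreated replicate 2, 2643 without untreated replicate 3, 2463 without 2 h replicate 1 and 5825 without 2 h replicate 2. Of 1879 pairs of a named gene and an alternative, 1643 kept the direction and the side of the threshold, 221 passed it newly and 15 changed direction, in 8 genes. Actb was at 0.14 on replicates 1 and 3 and 0.13 with array weights, and ND4 at -0.024 with array weights. Without 1 array the log2 difference ranged from -0.17 to 0.041 for Actb, -0.015 to 1.30 for Cd63, -0.055 to 0.78 for Bcl2l11, -0.018 to 0.87 for Eif4a1, -0.091 to 0.71 for Srsf2, -0.093 to 0.15 for Hprt and -0.065 to 0.81 for ND5. The cause was not tested. Of 517 pairs of a list and an alternative, 44 moved the list's median by more than the spread between replicates of a label. That spread included the replicate 2 arrays and was wide where they went against their labels, so this count says little about stability. The list's median changed sign in at least 1 alternative for 14 lists. The median of ribosome biogenesis was 0.21 to 0.82 and that of the immediate-early factors 0.33 to 1.07 without 1 array.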

Other observations

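Protein handling and cell death genes gave further values, chosen after they were seen. Among 32 measured proteasome genes, the 3 immunoproteasome subunit genes Psmb8, Psmb9 and Psmb10 were at -0.72, -0.78 and -0.90 on replicates 1 and 3. Their constitutive counterparts Psmb5, Psmb6 and Psmb7 were at 0.38, 0.42 and 0.39. Psme3, the nuclear proteasome activator gene, had 372, 1137 and 421 untreated and 940, 438 and 921 at 2 h, a difference of 0.33 ± 0.50 over all arrays and 1.14 ± 0.14 on replicates 1 and 3. Of the 25 measured genes of the unfolded protein and amino acid stress responses, 10 were higher and 7 lower without overlap on replicates 1 and 3, near the 32.5% and 35.5% of all features. Dnajb9, a chaperone gene of the endoplasmic reticulum, had 197, 510 and 218 untreated and 631, 206 and 820 at 2 h, and Ddit4, an inhibitor gene of mTORC1, 604, 260 and 624 untreated and 222, 479 and 243 at 2 h.

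In the BCL2 family, 12 of 16 were measured, with 5 higher and 6 lower without overlap on replicates 1 and 3, where all features had 32.5% and 35.5%. The death-promoting gene Bcl2l11 (BIM) was at 1.18 ± 0.13 there and 0.23 ± 0.48 over all arrays. Bbc3 (PUMA), also death-promoting, was at -1.07 ± 0.17 and -0.67 ± 0.34, and its probes differed in sign. Survival genes were on both sides, with Bcl2l1 at 0.85 and Bcl2 at -1.06 on replicates 1 and 3. In the list of glycolysis and nutrient transport, the folate carrier gene Slc19a1 was at 1.65, the amino acid transporter heavy chain gene Slc3a2 at 1.33 and the glucose transporter gene Slc2a1 at 1.26. Of the glycolytic enzymes, Ldha was at 0.96 and Pfkm at -0.47. The cholesterol list (22 of 30 measured) had 5 higher and 11 lower without overlap on replicates 1 and 3 (all features 32.5% and 35.5%). Its median there was -0.14, with the exporter gene Abcg1 lowest at -1.16 and the synthesis gene Idi1 highest at 0.92. Idi1 did not overlap over 3 against 3 arrays (57.4, 74.1 and 59.4 untreated and 135, 90.3 and 179 at 2 h). None of these genes passed limma's test over all arrays (adjusted p of at least 0.825).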
